A study of Mus musculus with 24 samples.

Results

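The genes described here belong to the endoplasmic reticulum (ER) stress response and the integrated stress response, the linked programs by which a cell answers misfolded protein, lack of amino acids or lack of oxygen. They were chosen by symbol: Atf4, Atf5, Ddit3, Xbp1, Herpud1, Asns, Sesn2 and Ppp1r15a. All 8 were measured, out of 14769 gene symbols in the series, and all 8 were present in each of its 4 tables. Cortical RNA was sequenced from male mice, 3 to 4 months old, after transient middle cerebral artery occlusion, a filament model of ischemic stroke, with 1 h of blocked flow and 1 day of restored flow. Every animal went through this surgery, and the labels give the strain C57BL/6N-Cdr1asem1Nikr for wild-type (WT) and knockout (KO) animals alike. The KO animals lack ciRS-7, a circular RNA also named Cdr1as. Libraries are marked CL or PI, marks that the labels leave unexplained and that are kept here. The word side below stands for this mark alone. Each of the 6 WT and 6 KO animals gave 1 library of either kind, which makes 4 groups (CL WT and CL KO, PI WT and PI KO). The questions asked of the 8 genes were whether PI differed from CL within a genotype, and whether KO differed from WT within PI or within CL.

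In the integrated stress response, several kinases phosphorylate the translation factor eIF2alpha, most protein synthesis slows, and a few messages with upstream reading frames, Atf4 among them, are translated more. ATF4 is a transcription factor for amino acid transport and synthesis, tRNA charging and, with CHOP (the product of Ddit3), further stress genes, while the product of Ppp1r15a, GADD34, brings a phosphatase back to eIF2alpha and ends the response. In the unfolded protein response of the ER, the sensors PERK, IRE1 and ATF6 act side by side: PERK is an eIF2alpha kinase, IRE1 splices the Xbp1 message, and ATF6 and spliced XBP1 raise chaperones and degradation factors such as Herpud1. Both programs have been described in brain after ischemia. A gene-level RNA count shows neither translation of Atf4 nor splicing of Xbp1.

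Known DNA elements of these programs were looked for in the promoters of the 8 genes, from 250 bases before to 50 bases after the start of each RefSeq transcript (build GRCm38.p6, 9 promoters, since Atf5 has an upstream and a downstream one). The elements were searched on both strands, and 3 genes held one. The 150 bases just before the start are shown for those 3, 5′ to 3′ on the gene's strand, with the matched bases in capitals.
Asns, chr6:7693210-7693359, minus strand: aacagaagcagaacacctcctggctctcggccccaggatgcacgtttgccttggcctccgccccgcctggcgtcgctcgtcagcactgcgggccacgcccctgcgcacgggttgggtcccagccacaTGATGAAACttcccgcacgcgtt
Herpud1, chr8:94386279-94386428, plus strand: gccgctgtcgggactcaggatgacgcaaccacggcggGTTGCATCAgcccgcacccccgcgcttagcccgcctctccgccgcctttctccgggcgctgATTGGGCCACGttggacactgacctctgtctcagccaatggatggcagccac
Ppp1r15a, chr7:45526269-45526418, minus strand: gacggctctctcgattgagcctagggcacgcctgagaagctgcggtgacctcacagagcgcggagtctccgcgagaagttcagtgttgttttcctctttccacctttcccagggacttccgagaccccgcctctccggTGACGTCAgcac

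In Asns the capitals mark the C/EBP-ATF element TGATGNAAN, to which ATF4 with a C/EBP partner binds, at bases -23 to -15 from the start. Of the 32851 promoters in the table, 3.95% hold it. Herpud1 holds the same element on the opposite strand at -113 to -105, and the ER stress element II (ATTGG, 1 base, CCACG) at -52 to -42, which 0.0365% of promoters hold. Ppp1r15a holds the cAMP response element TGACGTCA at -12 to -5, which reads the same on both strands and is in 1.79% of promoters. The ER stress element (CCAAT, 9 bases, CCACG; 0.119% of promoters) and the unfolded protein response element TGACGTGG (0.676%), whose first 6 bases are also those of the cAMP response element, matched no promoter of the 8 genes. A match is a string of letters in a window and was not tested as a binding site.

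Depth, read from the step between low values, was 3.74 to 10.5 megareads per library with a median of 6.91 megareads. The shallowest library was the CL library of KO animal 6, and the next was at 5.26 megareads. In WT, Cdr1as was at 11.42 ± 0.06 (SE, n = 6) log2 CPM in PI and 11.83 ± 0.05 in CL. CPM stands for a gene's reads scaled to an equal total in every library. In KO the second highest of 6 values was -2.57 log2 CPM in PI and -2.75 in CL, under the level that 3 reads give. The cortical excitatory markers Tbr1, Neurod6 and Slc17a7 were measured in every group. Before deposit the outer values of every gene had been pulled to the quartiles of their group of 6, so that the lowest and highest library of a gene cannot be known. Values below are therefore given from the second lowest through the median to the second highest library, the mean is that of the 4 inner values, and an SE is that of this trimmed mean. Groups are called apart where the second lowest value of one lies above the second highest of the other. A gene was called where the moderated trimmed-mean test (limma's empirical Bayes step, two-sided) gave an adjusted p under 0.05 over all genes of a table. Intervals are the 95% intervals of that test.

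The 8 genes differ widely in level. Per kilobase of exon in CL WT, Asns was highest at 24.7 CPM per kb, followed by Atf4 at 19.0, Xbp1 at 17.3 and Herpud1 at 16.1. Ppp1r15a at 2.66, Ddit3 at 1.725, Atf5 at 0.912 and Sesn2 at 0.801 CPM per kb formed a lower tier. The order was the same in PI WT and CL KO, and in PI KO Xbp1 (22.2) and Atf4 (22.2) changed places. On the log2 scale in CL WT, Xbp1 at 4.11 ± 0.04 and Herpud1 at 4.01 ± 0.10 log2 CPM per kb differed by less than the sum of their standard errors, as did Atf5 at -0.13 ± 0.08 and Sesn2 at -0.32 ± 0.14. In CL KO, Ppp1r15a at 1.23 ± 0.19 and Ddit3 at 1.14 ± 0.22 were likewise not separated. A library held a median of 16.2 reads of Atf5, 24 of Sesn2, 25 of Ddit3 and 55.8 of Ppp1r15a, against 251 to 507 of the other 4 genes.

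The side comparison gave a higher trimmed mean in PI for 7 of the 8 genes in WT, where 52.3% of all genes were higher, and for all 8 in KO, where 49.9% were. In WT, 1 of the 8, Atf4, passed the test, where 10.6% of all 14489 genes did and 5.2% did so upward. In KO, Atf5 and Xbp1 passed, where the shares were 10% of 14338 genes and 5.11% upward. Averaged over both genotypes, Atf4, Atf5, Xbp1, Asns and Sesn2 passed, all upward, where 23.2% of 14211 genes passed and 11.4% upward. Groups were apart upward for 6 of 8 genes in WT and 5 of 8 in KO, where 13.2% and 13.4% of all genes were. No gene of the 8 was called in both genotypes, as 3.05% of all genes were upward.

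**Figure D1:**
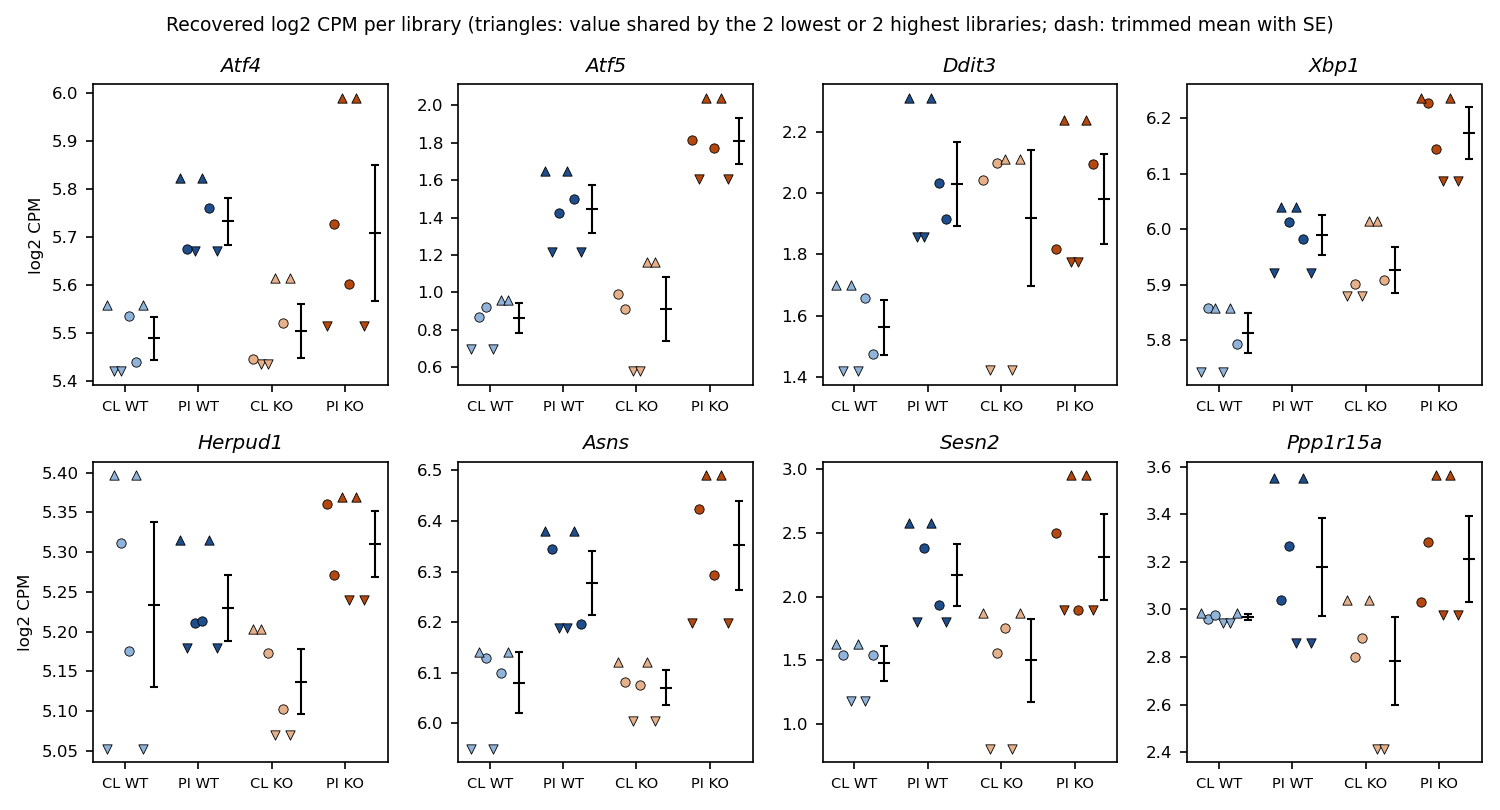
Each panel shows 1 gene in the 4 groups of 6 libraries, in log2 CPM from the tables of PI and CL; triangles are the value shared by the 2 lowest or the 2 highest libraries, circles are inner libraries, and the dash with bars is the trimmed mean with its SE. By the values shown, Atf5, Xbp1, Asns and Sesn2 stand clear of CL in both genotypes, Sesn2 in KO only just. Herpud1 does so in KO and not in WT, and Atf4 and Ddit3 do so in WT and not in KO.

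Among the transcription factors, Atf4 encodes the central factor of the integrated stress response and lies at chr15:80255184-80257541 on the plus strand (GRCm38, GENCODE M21). In CL WT it ran from 5.42 through 5.49 to 5.56 log2 CPM, and in PI WT from 5.67 through 5.72 to 5.82. The WT groups were apart, and the difference was 0.24 ± 0.07 (SE; interval 0.09 to 0.40; adjusted p = 0.047). In CL KO it ran from 5.43 through 5.48 to 5.61, and in PI KO from 5.51 through 5.66 to 5.99. The KO groups overlapped, and the difference of 0.20 ± 0.15 did not pass (interval -0.06 to 0.46, adjusted p = 0.327). The WT call rests near the threshold, and it was lost when any 1 WT animal was left out (adjusted p = 0.183 to 0.306). In those fits 718 to 868 of all genes passed, against 1537 with every animal. The call was also lost when groups were centred on their median gene (0.0785), and without a trend in the prior variance (0.0959).

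Atf5 encodes a related factor that is also translated through upstream reading frames, at chr7:44812256-44816658 on the minus strand. Its CL WT libraries ran from 0.70 through 0.89 to 0.96 log2 CPM, and in PI WT from 1.21 through 1.46 to 1.65. Its CL KO libraries ran from 0.58 through 0.95 to 1.16, and in PI KO from 1.61 through 1.80 to 2.04. Groups were apart in both genotypes. The difference was 0.90 ± 0.21 in KO (interval 0.36 to 1.44, adjusted p = 0.0387), a fold of 1.87, and 0.58 ± 0.15 in WT (interval 0.08 to 1.09, adjusted p = 0.138), a fold of 1.499. The KO call was lost when any 1 KO animal was left out (adjusted p = 0.139 to 0.263). In those fits 562 to 736 of all genes passed, against 1440 with every animal. Without a trend in the prior variance the WT difference passed (adjusted p = 0.0433). Of its 1993 exonic bases, 82 are shared with exons of Nup62 and Il4i1 on the opposite strand, and whether counting used the strand is not stated.

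Ddit3 encodes CHOP, a factor linked to cell death under lasting ER stress, at chr10:127290774-127296288 on the plus strand. In CL WT it ran from 1.42 through 1.57 to 1.70 log2 CPM, and in PI WT from 1.86 through 1.97 to 2.31. The WT groups were apart, with a difference of 0.47 ± 0.16 that did not pass (interval 0.04 to 0.89, adjusted p = 0.165). In CL KO it ran from 1.43 through 2.07 to 2.11, and in PI KO from 1.77 through 1.96 to 2.24. The KO groups overlapped, and the difference was 0.06 ± 0.27 (interval -0.47 to 0.59, adjusted p = 0.91). In CL KO the second lowest library lay far under the third, at 2.04, which with the fourth, at 2.10, lay within the PI KO values given. With about 25 reads per library this gene is thinly counted, and exons of Mars on the opposite strand share 68 of its 1713 exonic bases. A further record of the annotation with the same symbol and strand shares 105 of them, and which record the deposited row counts is not known.

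Xbp1 encodes the factor made active by IRE1 splicing, at chr11:5520659-5525893 on the plus strand. Libraries of CL WT ran from 5.74 through 5.83 to 5.86 log2 CPM, and in PI WT from 5.92 through 6.00 to 6.04. Libraries of CL KO ran from 5.88 through 5.91 to 6.01, and in PI KO from 6.09 through 6.19 to 6.24. Both pairs of groups were apart. The difference was 0.25 ± 0.06 in KO (interval 0.09 to 0.40, adjusted p = 0.0432) and 0.18 ± 0.05 in WT (interval 0.04 to 0.31, adjusted p = 0.102). The KO call was lost with centred groups (adjusted p = 0.072), without a trend in the prior variance (0.101), and when any 1 KO animal was left out (0.141 to 0.302). With 1 KO animal left out, 562 to 736 of all genes passed, against 1440 with every animal.

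Among the effectors, Asns encodes asparagine synthetase, a classical ATF4 target with the element shown above, at chr6:7675169-7693254 on the minus strand. In CL WT it ran from 5.95 through 6.11 to 6.14 log2 CPM, and in PI WT from 6.19 through 6.27 to 6.38. In CL KO it ran from 6.00 through 6.08 to 6.12, and in PI KO from 6.20 through 6.36 to 6.49. Groups were apart in both genotypes, and neither difference passed: 0.20 ± 0.09 in WT (adjusted p = 0.14) and 0.28 ± 0.10 in KO (adjusted p = 0.0544). With libraries paired by animal, the KO difference passed (adjusted p = 0.0121).

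Sesn2 encodes sestrin 2, a stress-induced restraint on mTORC1 signalling, at chr4:132492032-132510501 on the minus strand. Values in CL WT ran from 1.18 through 1.55 to 1.63 log2 CPM, and in PI WT from 1.80 through 2.15 to 2.58. Values in CL KO ran from 0.81 through 1.66 to 1.87, and in PI KO from 1.89 through 2.19 to 2.95. Groups were apart in both genotypes, in KO only just. Differences were 0.70 ± 0.28 in WT (interval 0.16 to 1.23, adjusted p = 0.1) and 0.81 ± 0.47 in KO (interval 0.02 to 1.59, adjusted p = 0.187). Paired by animal, both passed (adjusted p = 0.034 in WT and 0.0471 in KO).

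Herpud1 encodes an ER membrane protein of ER-associated degradation, at chr8:94386438-94395377 on the plus strand. In CL WT it ran from 5.05 through 5.24 to 5.397 log2 CPM, which encloses the PI WT values of 5.18 through 5.21 to 5.32. The WT difference was -0.00 ± 0.11 (interval -0.21 to 0.20, adjusted p = 0.986). Among KO animals it ran from 5.07 through 5.14 to 5.20 in CL and from 5.24 through 5.32 to 5.37 in PI. The KO groups were apart, and the difference of 0.17 ± 0.06 did not pass (interval 0.01 to 0.34, adjusted p = 0.174).

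Ppp1r15a encodes GADD34, the feedback arm on eIF2alpha, at chr7:45522916-45526268 on the minus strand. Its level in CL WT stayed between 2.94 and 2.99 log2 CPM with a median of 2.97, and in PI WT it ran from 2.86 through 3.15 to 3.55. In CL KO it ran from 2.41 through 2.84 to 3.04, and in PI KO from 2.98 through 3.16 to 3.56. Groups overlapped in both genotypes. Differences were 0.21 ± 0.21 in WT (interval -0.17 to 0.59, adjusted p = 0.52) and 0.43 ± 0.26 in KO (interval -0.03 to 0.88, adjusted p = 0.23). The spread in CL WT, with an SE of 0.01, was far narrower than in the other 3 groups, where it was 0.18 to 0.21.

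Averaging the PI minus CL difference over WT and KO uses all 24 libraries. On this measure Atf5 was higher by 0.74 (interval 0.40 to 1.08, adjusted p = 0.00207), Xbp1 by 0.21 (0.12 to 0.31, adjusted p = 0.00204) and Asns by 0.24 (0.11 to 0.36, adjusted p = 0.00604). Sesn2 was higher by 0.75 (0.26 to 1.24, adjusted p = 0.0259) and Atf4 by 0.22 (0.07 to 0.38, adjusted p = 0.0339). Ddit3 at 0.26 (adjusted p = 0.259), Herpud1 at 0.08 (0.37) and Ppp1r15a at 0.32 (0.128) did not pass. In each of 12 fits 1 animal was left out, but the values shared by outer libraries were still those solved from all 6. The animal's own value could therefore remain in a fit. Atf5, Xbp1 and Asns passed in 12 of 12 fits. Sesn2 passed in 5, losing its call without WT animal 1, 3, 4 or 5 or KO animal 1, 3 or 5 (adjusted p up to 0.0817), and Atf4 passed in 2, without KO animal 4 or 6 (adjusted p up to 0.0976 in the others). Atf4 did not pass with groups centred on their median gene (adjusted p = 0.0682) or without a trend in the prior variance (0.065).

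The labels name the same animal for the CL and PI library of a number, and a trimmed-mean test with the animal as a block gave more calls. It called Atf4 (adjusted p = 0.0207) and Sesn2 in WT, 2 of 8, where it called 15.7% of all genes. In KO it called Atf5 (adjusted p = 0.0355), Xbp1 (0.0271), Asns and Sesn2, 4 of 8, where it called 15% of all genes. Averaged over the genotypes it called the same 5 genes as the unpaired test, where it called 24.9% of all genes. Ddit3, Herpud1 and Ppp1r15a passed in none of these paired tests.

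**Figure D2:**
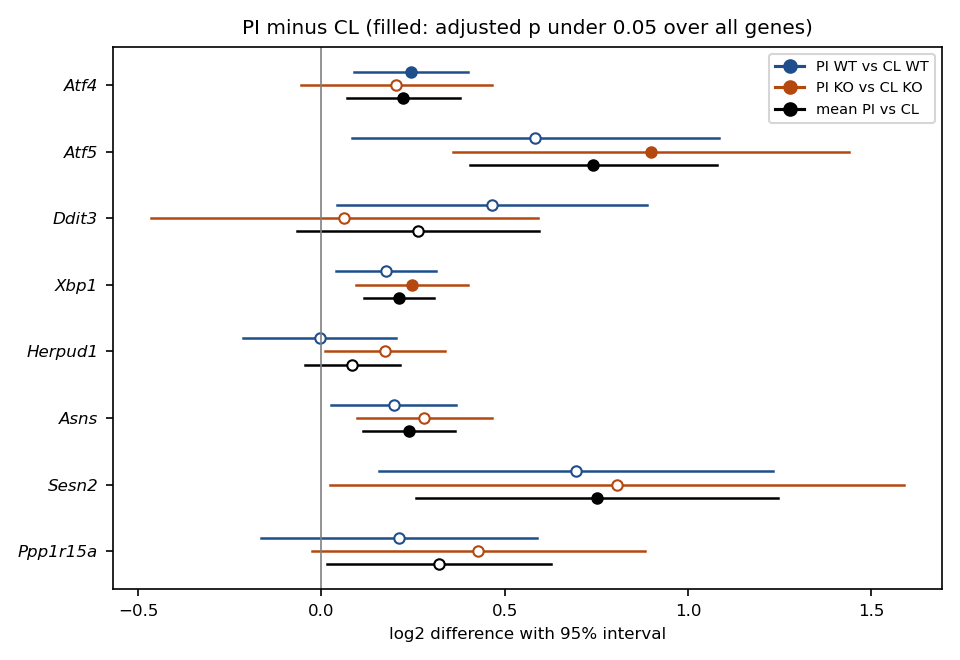
The log2 difference PI minus CL of each gene is drawn with its 95% interval in WT (blue), in KO (orange) and averaged over both (black), and filled points passed at an adjusted p under 0.05. Atf5 and Sesn2 have the largest differences and the widest intervals, and those of Xbp1, Asns and Atf4 are smaller and tighter.

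KO did not differ from WT by the test in any of the 8 genes, in PI or in CL, where 0.0208% and 0.0279% of all genes were called. At an unadjusted p under 0.05 the shares of all genes were 5.75% and 5.73%, and 1 of the 8 genes reached it in PI and 0 in CL. That gene was Xbp1. In its table of PI libraries it ran from 5.95 through 6.03 to 6.07 log2 CPM in WT and from 6.13 through 6.22 to 6.27 in KO, and the groups were apart. The difference was 0.19 ± 0.06 (interval 0.04 to 0.34), with an unadjusted p = 0.0155 by the limma-moderated test and an adjusted p = 0.854. In CL it ran from 5.71 through 5.79 to 5.82 in WT and from 5.85 through 5.88 to 5.99 in KO, again apart, with a difference of 0.12 ± 0.06 (interval -0.02 to 0.26, adjusted p = 0.878). Groups were apart upward in 4.39% of all genes in PI and 4.35% in CL.

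The other 7 genes overlapped between genotypes on both sides. In PI, the KO minus WT difference of Atf5 was 0.37 (interval -0.11 to 0.84, adjusted p = 0.867) and that of Sesn2 0.14 (-0.55 to 0.84). Those of Atf4 at -0.02 (-0.28 to 0.24), Ddit3 at -0.05 (-0.50 to 0.41), Herpud1 at 0.09 (-0.08 to 0.25), Asns at 0.08 (-0.12 to 0.28) and Ppp1r15a at 0.04 (-0.43 to 0.51) lay nearer to 0. In CL, Ddit3 had the largest difference, 0.36 (-0.14 to 0.86, adjusted p = 0.902), followed by Ppp1r15a at -0.18 (-0.54 to 0.19) and Herpud1 at -0.09 (-0.30 to 0.12). Atf5 at 0.05 (-0.53 to 0.63), Sesn2 at 0.03 (-0.63 to 0.68), Atf4 at 0.02 (-0.14 to 0.18) and Asns at -0.00 (-0.15 to 0.15) were nearer to 0. In PI the intervals of Atf5 and Sesn2 both reach 0.84, beyond their mean differences between sides.

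Whether the PI minus CL difference itself differed by genotype was tested as an interaction, and 0 of the 8 genes passed. Of all 14211 genes 0% passed, and 4.55% had an unadjusted p under 0.05, none of the 8 among them. The interaction was -0.40 in Ddit3 (interval -1.06 to 0.26), 0.32 in Atf5 (-0.36 to 0.99), 0.22 in Ppp1r15a (-0.39 to 0.83) and 0.18 in Herpud1 (-0.08 to 0.44). It was 0.11 in Sesn2, 0.08 in Asns, 0.07 in Xbp1 and -0.04 in Atf4, and all 8 adjusted p-values were at least 0.992. A call in WT and not in KO, as for Atf4, or the reverse, as for Atf5 and Xbp1, therefore does not show a difference between genotypes.

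**Figure D3:**
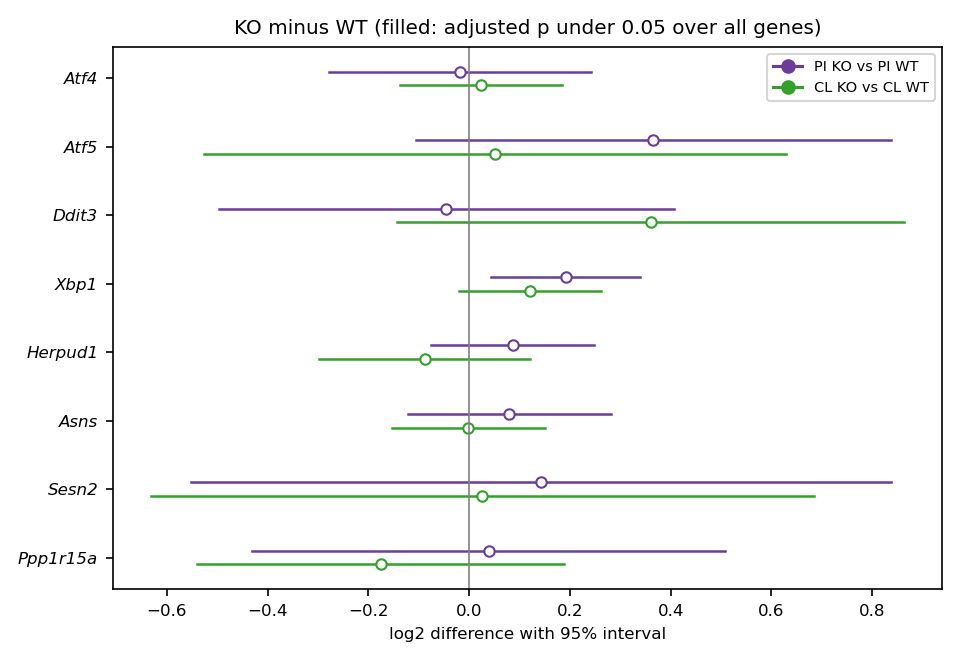
The log2 difference KO minus WT of each gene is drawn with its 95% interval in PI libraries (purple) and in CL libraries (green). No point is filled, since none passed at an adjusted p under 0.05, and of the 8 genes Xbp1 in PI alone has an interval that leaves out 0.

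The wider pathway was described with 7 lists, and a gene that sits in a pair of lists is counted in each. Among amino acid, one-carbon and stress genes known as targets of ATF4 or CHOP, 7 of 27 measured genes rose and 3 fell in PI WT, and 11 of 26 rose and 0 fell in PI KO. Averaged over the genotypes 17 of 26 rose and 3 fell. Among all genes 5.2% rose in WT, 5.11% in KO and 11.4% in the average, and each list is read against these shares, so that a count of 1 or 2 genes is no result about its list. The median difference of the list was 0.38 in WT and 0.42 in KO, against 0.01 and -0.00 for all genes. Slc7a11, the light chain of the cystine transporter, was higher by 1.05 in WT (adjusted p = 0.000217) and 0.78 in KO (adjusted p = 0.00235). Its partner Slc3a2 was higher by 0.48 and 0.55, and Mthfd2, a mitochondrial folate enzyme, by 0.70 and 1.47. The cationic amino acid transporter gene Slc7a1 rose by 0.45 in WT, and Aldh18a1, of proline synthesis, by 0.71 in KO. The 3 that fell in WT were Jdp2 (-0.57), a bZIP repressor, Gpt2 (-0.38), an alanine transaminase, and Vldlr (-0.27), a lipoprotein receptor. Without KO animal 6, whose CL library was the shallowest, 7 genes of the list passed in KO, where 736 of all genes did, against 1440 with it.

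All 12 cytosolic aminoacyl-tRNA synthetases, the enzymes that charge tRNAs and many of them ATF4 targets, had a positive difference in both genotypes, with medians of 0.16 in WT and 0.24 in KO. In WT 1 passed, Aars (0.30, adjusted p = 0.00354), and in KO 2 did, Aars (0.39, adjusted p = 0.0037) and Wars (0.30, adjusted p = 0.0342). The WT count is near the 5.2% of all genes that rose. Paired by animal 3 passed in WT and 6 in KO, where 15.7% and 15% of all genes did. Averaged over both genotypes 8 of 12 rose, where 11.4% of all genes did, with Aars (0.35), Sars (0.23), Iars (0.26) and Wars (0.20) first by p.

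Of 16 genes for eIF2alpha kinases and eIF2 machinery, 1 rose in WT and 3 in KO, where 5.2% and 5.11% of all genes rose, so the WT count is near that share. Averaged over the genotypes 7 rose, where 11.4% of all genes did, and 1 fell. Eif2ak2, which encodes PKR, the kinase for double-stranded RNA and itself an interferon-induced gene, was higher by 0.89 in WT (adjusted p = 0.00926) and 0.90 in KO (adjusted p = 0.00185). In KO the eIF2 subunit genes Eif2s2 (0.39) and Eif2s3x (0.27) also rose. Ppp1r15b, the constitutive relative of Ppp1r15a, rose by 0.17 and Eif2ak1, the heme-regulated kinase, fell by 0.13 in the average over genotypes. Paired by animal 2 of the 16 genes passed in WT, near the 15.7% of all genes that did.

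The sensors showed no call. Of Ern1, Eif2ak3, Atf6, Atf6b, Mbtps1, Mbtps2 and Rtcb, which encode IRE1, PERK, the ATF6 factors, the proteases that cut ATF6 and the ligase that joins spliced Xbp1, 0 of 7 passed in WT, in KO or averaged, paired or not. Unadjusted p was under 0.05 for 0 of them in WT, where it was for 23.9% of all genes, and for 2 in KO, where it was for 24.9%. They were Rtcb (0.20, adjusted p = 0.11) and Eif2ak3 (0.19, adjusted p = 0.196). In WT the differences ran from -0.03 in Mbtps2 to 0.07 in Atf6, and in KO from -0.24 in Atf6b to 0.20 in Rtcb.

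Of 21 ER chaperones and folding enzymes, 2 rose in WT, where 5.2% of all genes rose, and 4 in KO, where 5.11% did, and none fell. P4hb, a protein disulfide isomerase, rose by 0.36 in WT (adjusted p = 0.00686) and 0.45 in KO (adjusted p = 0.00106). Hspa5, which encodes the chief ER chaperone BiP, rose by 0.25 in WT (adjusted p = 0.0227) and was at 0.32 in KO (adjusted p = 0.0667; 0.000368 paired by animal). In KO Ppib (0.34), a proline isomerase, Dnajb9 (0.28), a BiP co-chaperone, and Ero1a (0.31), an oxidase for disulfides, rose.

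Of 19 genes of ER-associated degradation, 3 rose in WT and 2 in KO, against 5.2% and 5.11% of all genes. Wfs1, a membrane protein of the ER that restrains stress signalling, rose by 0.74 in WT (adjusted p = 0.000794) and 0.54 in KO (adjusted p = 0.0226), and Vcp, the ATPase that extracts proteins from the ER, by 0.23 and 0.20. Edem1, a mannosidase-like factor, rose by 0.32 in WT. Of 11 sestrins and bZIP relatives of the 8 genes, 1 rose in WT and 2 in KO, against the same shares. They were Cebpd (1.28 in WT, adjusted p = 0.000339, and 1.86 in KO, adjusted p = 8.43e-06) and, in KO, Cebpb (0.75, adjusted p = 0.0267), which encode C/EBP factors. The median of this list was 0.05 in WT and -0.00 in KO. Paired by animal 2 of its 11 genes passed in WT, near the 15.7% of all genes that did. In none of the 7 lists was a gene called between genotypes or in the interaction.

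**Figure D4:**
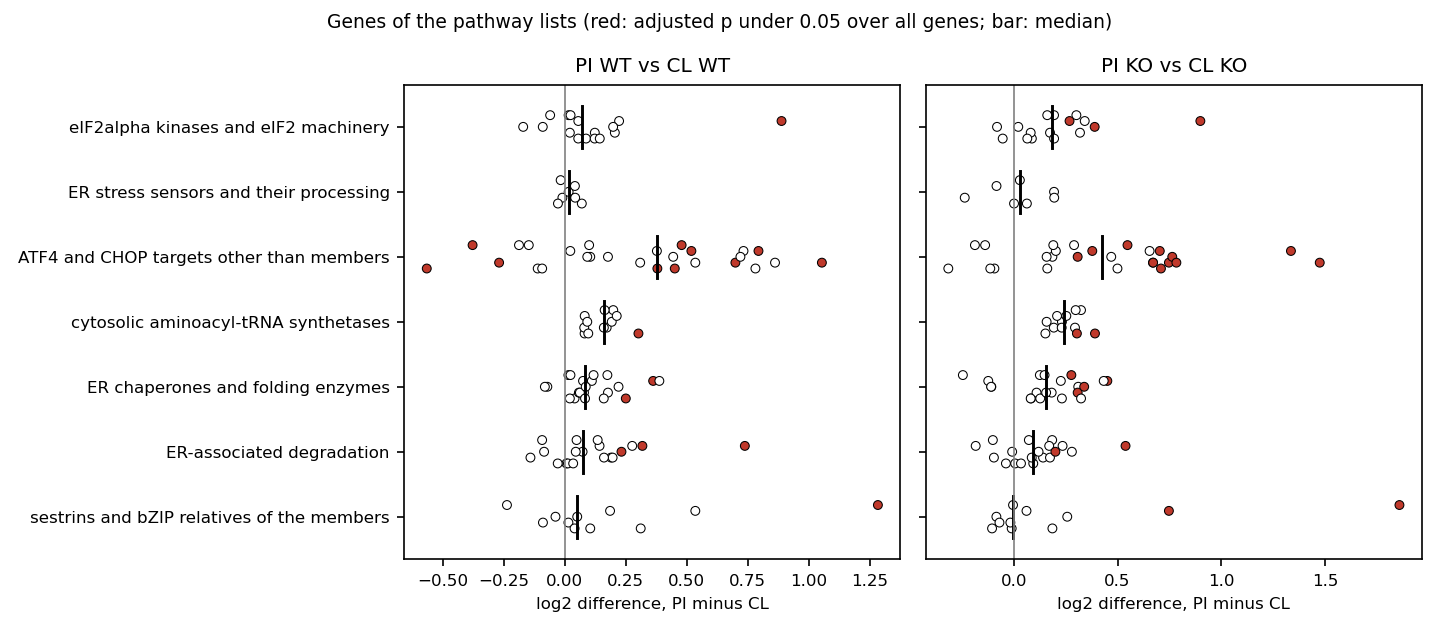
Each point is a gene of a pathway list, placed at its log2 difference PI minus CL in WT (left) and KO (right), with red for an adjusted p under 0.05 over all genes and a bar at the list's median. The targets of ATF4 and CHOP have the highest medians, 0.38 and 0.42. The sensors have medians of 0.02 and 0.03 and no red point in either genotype, and their points spread more widely in KO than in WT.

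These are bulk samples, in which fewer cells of a type and less RNA per cell cannot be told apart. Reactive astrocyte markers moved with side: 6 of 6 (Gfap, Vim, Serpina3n, Lcn2, Cd44, Osmr) rose in both genotypes, with medians of 2.43 in WT and 2.40 in KO. Summed per library, with the outer libraries of a gene set at its second lowest or second highest value, they gave 100.2 to 130.7 CPM in CL WT against 419.7 to 504 CPM in PI WT. The same sum in KO was 99.6 to 118.6 CPM in CL against 392.9 to 590.4 CPM in PI. Of 6 neuronal markers 0 rose and 2, Snap25 and Syt1, fell in each genotype. The neuronal sum in WT was 5668 to 6233 CPM in CL against 4783 to 5481 CPM in PI, and in KO it was 5747 to 6049 CPM against 4526 to 5314 CPM. Among microglial markers Cx3cr1 rose and P2ry12 fell in both genotypes, and Aif1 rose in WT. Of 5 other astrocyte markers Aqp4 rose and Gja1 fell in both genotypes, and Slc1a2 fell in WT. Further calls were Cspg4 of 2 precursor markers, Ighm, the 1 measured of 4 B cell markers (both lower in PI WT), Ppp1r1b of 2 measured striatal markers (higher in PI WT) and Tbr1 of the cortical excitatory markers (lower in PI KO). Oligodendrocyte, endothelial and choroid plexus markers had no call, with 5 of 5, 5 of 5 and 1 of 4 measured, and of 6 neutrophil and monocyte markers 0 were in the tables of PI and CL. Between PI KO and PI WT 2 of these 6, S100a8 and S100a9, were measured. Their median KO minus WT difference was 0.96, and neither was called. Paired by animal, 3 of 5 oligodendrocyte and 2 of 5 endothelial markers passed in each genotype, where 15.7% of all genes did in WT and 15% in KO. So did 4 of the 5 other astrocyte markers in WT and 3 in KO, and 3 of 6 neuronal markers in WT and 2 in KO. In KO, 3 of 4 cortical excitatory markers and 1 striatal marker also passed when paired. The part of these shifts in the values of the 8 genes was not tested. The marker genes were named after their values were seen.

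Within a group, some animals were high or low for most of the genes. In PI KO, animal 5 was among the 2 highest of 6 libraries for 8 of 8 genes, and 32% of all genes had it there. Animals 3 and 5 together were the highest pair for 6 genes, all but Ddit3 and Xbp1, as for 7.9% of all genes. Animal 6 was among the 2 lowest for 7 of 8 genes (38% of all genes). The summed reactive astrocyte level of the PI KO libraries was 575.1 CPM in animal 5, 482.8 in animal 3, 394.4 in animal 6 and 392.9 in animal 4. The sum of neurons was lowest in animal 5 at 4526 CPM. Animal 4 was among the 2 lowest for 4 genes and among the 2 highest for 0. In animals 1 and 2, which were high in the reactive sum at 566 and 590.4 CPM, 1 gene each was in the highest pair, Xbp1 and Ddit3.

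In PI WT, animal 1 was among the 2 highest for 7 of 8 genes, all but Xbp1, for which it was among the 2 lowest, and 31.6% of all genes had it among the highest. Animal 4 joined it for Atf4, Atf5, Ddit3 and Sesn2 (7.04% of all genes) and animal 5 for Herpud1, Asns and Ppp1r15a (6.86%). Animal 6 was among the 2 lowest for 6 genes (31.3% of all genes). The reactive sum in PI WT was highest in animal 3 at 504 CPM, which was among the 2 highest for 0 genes. It was lowest in animal 4 at 419.7 CPM, which was among the 2 highest for 5. Animal 1 was at 502.9 CPM and animal 6 at 463.6 CPM. A relation of these sums to the 8 genes was not tested. In the CL groups no animal was among the 2 highest for more than 4 genes. At the low end, CL WT animal 4 was among the 2 lowest for 5 genes (32.9% of all genes). CL KO animal 3 was low for 4 genes and high for 0. In CL KO the shallowest library, of animal 6, was high for 4 genes and low for 3.

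**Figure D5:**
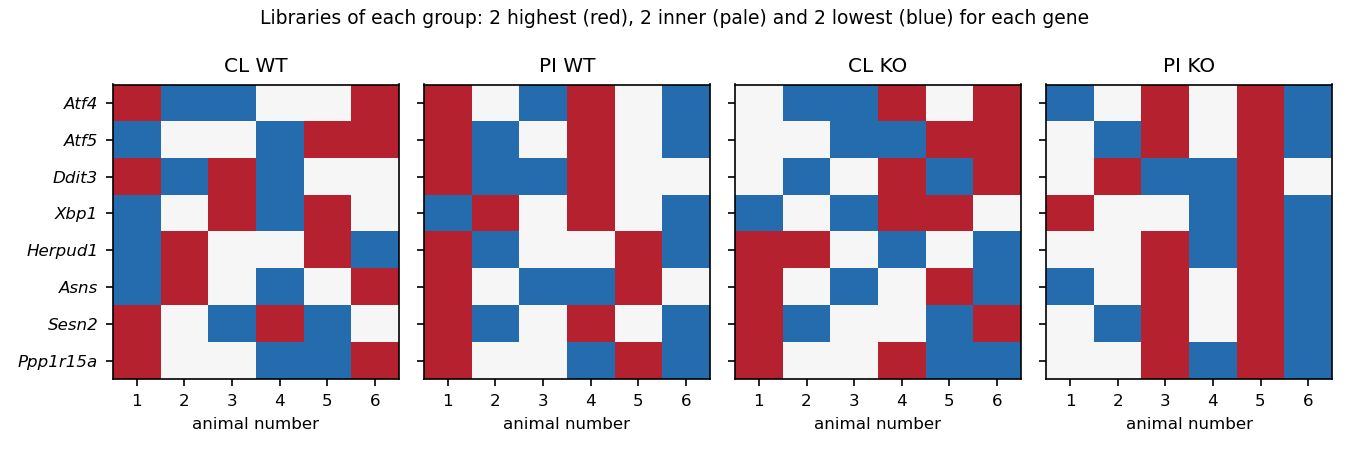
For each gene (rows) and each of the 6 animals of a group (columns), red marks the 2 highest libraries, blue the 2 lowest and pale the 2 inner ones, in the tables of PI and CL. The column of PI KO animal 5 is red for all 8 genes and that of animal 6 blue for 7. The CL columns hold both red and blue, except that of CL KO animal 3, which is blue for 4 genes and never red.

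For each of the 8 genes, the genes whose log2 values ran most nearly parallel were found by Pearson's r over the 12 libraries of each table of PI and CL. The r was averaged over the WT and KO tables, among 11798 genes with a mean of at least 2 log2 CPM. These correlations are descriptions. They take in the difference between sides, and the genes share libraries. The outer libraries of a gene were set at its second lowest or second highest value. Atf4 ran most nearly with Mdm2 (mean r = 0.93), Mettl16 (0.88) and Ryk (0.88), Atf5 with Mapkapk2 (0.93), Stat3 (0.92) and Mt1 (0.92), and Xbp1 with Rer1 (0.93), Esr1 (0.92) and Rps15a (0.92). Asns ran with Cct6a (0.93), Cct2 (0.92) and Rnf4 (0.92), Sesn2 with Slc7a5 (0.89), Prkrip1 (0.89) and Mapkapk2 (0.87), and Ppp1r15a with Tsr1 (0.90), Tbpl1 (0.90) and Cdr2 (0.88). The values were lower for Herpud1, with Eef1b2 (0.82), Lgalsl (0.81) and Gpn3 (0.80), and for Ddit3, with Dkc1 (0.80), Hmgb2 (0.77) and Terf2ip (0.76). Mapkapk2 was the 1 gene named for 2 of the 8.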

How the data were processed

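RNA was extracted with TRIzol, depleted of ribosomal RNA and made into CORALL total RNA libraries, per the labels' protocols. The authors deposited log2 CPM values in 4 tables of 2 groups each, per the file headers. The submitters' processing notes name the build mm10, and the aligner, counting, use of strand and scaling are not given in the sources used here. Each table was scaled on its own, so tests were made within a table. In 100% of genes the 2 lowest and the 2 highest deposited values of a group were tied at its quartiles, a step no label records. The 4 inner values were solved from this, and 81.4% to 88.6% of low tied values per group were then whole reads (within 0.05 read), against 13.8% to 20.6% as deposited. Depth was 3.74 to 10.5 megareads, and no count test was run because the outer values are lost. No column of values was left over.

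The test compared the means of the 4 inner values, taking their error from the Winsorized sum of squares (degrees of freedom: 6 with 2 groups, 12 with 4). Variances were moderated by limma 3.58.1 in R 4.3.3 with a trend, and p-values were adjusted by Benjamini-Hochberg over all genes of a table. The SE printed is unmoderated and the interval moderated. The script was tested on simulated data. The labels tie the CL and PI library of a number to 1 animal, and their deviations from the group means correlated at -0.03 to 0.24 across genes, so the animal was used as a block in a paired trimmed-mean test with 3 degrees of freedom, an alternative. Other alternatives were limma on the deposited values, no trend, groups centred on the median gene, log2(CPM + 1), a minimum mean of 0 log2 CPM, and leaving out each animal. Leaving out an animal removed its libraries from the fit only. The values shared by outer libraries were still those solved from all 6, so such a fit is not free of that animal.

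The genes, lists, markers and tests were chosen with earlier results of these data known. Named genes were the 8, the sensors, up to 4 called genes per list, comparison and direction with the smallest p, and the 3 genes most alike to each of the 8. Positions are from GENCODE M21 on GRCm38, promoters from RefSeq on GRCm38.p6. Correlations used the solved values, with the outer libraries of a gene set at its second lowest or second highest value. Some marker genes are not reported here.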

Additional observations from a re-analysis of the deposited data

How the results depend on the processing

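The lost outer values limit the spread that can be known, and Atf5, Sesn2 and Ddit3 are thinly counted. With limma on the deposited values, whose spread is narrowed, 6 of 8 genes passed in WT, 7 in KO, 8 in the average over genotypes, 2 for KO against WT in PI (Atf5, Xbp1) and 2 in CL (Ddit3, Xbp1), where 6459, 6666, 7873, 2388 and 2311 genes of all passed. The interaction had 0 of 8 with it and 1940 genes of all. With limma and the animal as a block 6 of 8 passed in WT, 7 in KO and 8 in the average. Of all genes 6614, 6759 and 8075 passed in these fits. With the paired trimmed-mean test, also a block on the animal, 2 passed in WT and 4 in KO, where 2275 and 2154 genes of all did. Beside Sesn2 in WT and Asns and Sesn2 in KO, that pairing changed no other call of the 8 genes, and pathway lists in which it moved a count by over 1.5 times are given with their counts. Centring left 0 of 8 called in WT and 1 in KO, where 1689 and 1606 of all genes passed, against 1537 and 1440 without it. In the average Atf5, Xbp1, Asns and Sesn2 passed with centred groups, where 3449 of all genes did. Centring shifted differences by -0.03 in WT and -0.04 in KO. The higher share of all calls went from 49.1% to 37.7% in WT and from 50.8% to 36.7% in KO. In the average it went from 49% to 36.9%. Without a trend 1 passed in KO and 1 in WT, Atf5 in place of Atf4, and the counts over all genes were 1015 in WT and 739 in KO against 1537 and 1440. With 1 animal left out, and fewer degrees of freedom, 0 to 0 of the 8 passed in WT and 0 to 0 in KO, where 718 to 868 and 562 to 736 of all genes passed, and 3 to 5 passed in the average. KO animal 6 gave the shallow library; without it Atf5 was at 0.96 (adjusted p = 0.139) and Xbp1 at 0.25 (adjusted p = 0.165) in KO, and 5 passed in the average. Signs turned, for differences near 0 that did not pass, in 28 values, all with 1 animal left out: Herpud1 in WT ran from -0.0425 to 0.0279, Ddit3 in KO from -0.0456 to 0.158, in PI between genotypes Atf4 from -0.0585 to 0.0154, Ddit3 from -0.0829 to 0.0109 and Ppp1r15a from -0.0113 to 0.101, in CL Asns from -0.0205 to 0.0132 and Sesn2 from -0.0598 to 0.125, and in the interaction Atf4 from -0.0898 to 0.0115 and Sesn2 from -0.0784 to 0.335. Where a cause is not named, the cause was not tested.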
